A study of Homo sapiens with 15 samples.

Results

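Molecular chaperones of the heat shock protein (HSP) and DNAJ families were followed in A549 cells under high oxygen and all-trans retinoic acid (ATRA). Members were taken by gene symbol, as all genes named HSPA, HSPB, HSPD, HSPE, HSPH, HSP90B, DNAJA, DNAJB or DNAJC with a number, leaving out HSPA5. This gave 70 of the 43388 genes in the count files, of which 14 are HSPA genes, 8 HSPB genes, 2 the HSPD and HSPE chaperonin pair, 1 HSPH1, 2 HSP90B genes, 4 DNAJA genes, 13 DNAJB genes and 26 DNAJC genes. RefSeq lists 67 of them as protein coding and 3 as transcribed pseudogenes. The pattern of symbols did not take in the cytosolic HSP90 genes HSP90AA1 and HSP90AB1, and these are described with the other chaperone genes at the end.

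A549 is a human lung adenocarcinoma line with alveolar epithelial features, labelled wild type in every library. Cells were given 1e-05 mM ATRA or its ethanol vehicle for 24 hours. Exposure followed, and lasted 72 hours, either to hyperoxia (95% oxygen) or to normoxia, ordinary air at 21% oxygen. There were 3 libraries with ATRA and 2 with vehicle at each oxygen level, and 2 more at each level whose labels name neither ATRA nor vehicle, called here the libraries without vehicle. One further library entered no comparison, since its title names hyperoxia while its treatment label names adipogenic differentiation. All cells came from 1 line, and no label ties a replicate to a separate culture, so the p-values measure the spread between these libraries.

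HSP70 proteins, encoded by HSPA genes, bind exposed stretches of unfolded proteins in cycles driven by ATP. J proteins, encoded by DNAJ genes, bring clients to HSP70 and start ATP hydrolysis, while HSPH1 and its relatives release the nucleotide and reset the cycle. HSPD1 and HSPE1 form the folding chamber of mitochondria, HSP90B1 folds membrane and secreted proteins in the endoplasmic reticulum (ER), and small HSPs (HSPB) hold unfolded proteins without ATP. In lung epithelium as elsewhere, heat shock factor 1 (HSF1) raises many of these genes when misfolded proteins build up, by binding repeats of GAA and its complement TTC called heat shock elements.

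Libraries held between 2642377 and 5605072 counts on genes, so that 3 counts, taken as the smallest detectable level, corresponded to between 0.535 and 1.14 CPM (counts scaled to the same library total). This limit covers counting error only. Hyperoxia without vehicle replicate 1 stood apart, with a count on 12657 genes against 16465 to 20108 in the other labelled libraries. The keratins KRT7, KRT8 and KRT18, which mark epithelial lines, were present in all 14 labelled libraries, whereas the epithelial adhesion gene EPCAM was at 4.79 CPM or below and at 0 in 3 libraries. The 6 epithelial markers summed to between 3278 and 6928 CPM in hyperoxia and to between 6994 and 11537 CPM in normoxia. The leukocyte list, most of it the lysosomal gene CD68, summed to 59.98 to 105 CPM in hyperoxia and 21.1 to 48.7 CPM in normoxia. CD14 reached 15.5 CPM and was at 0 in 2 libraries, while PTPRC did not pass 0.181 CPM and CD3E was at 0 in all 14. Endothelial markers summed to 0 in hyperoxia and to at most 6.08 CPM in normoxia, and fibroblast markers to at most 4.92 and 13.4 CPM. Of these COL1A1 reached 12.3 CPM and was at 0 in 2 libraries, CDH5 reached 5.07 CPM, and VWF, TEK and DCN were at 0 throughout. Fewer cells of a kind and less RNA per cell cannot be told apart in bulk libraries, and the part of these shifts in the results was not tested.

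The 250 bases upstream of each start are shown first for the HSP70 pair with the largest fall in hyperoxia with vehicle, since their heat shock element is what the pair is best known for. RefSeq promoter sequences (GRCh38.p14) were found for 61 of the 70 members. HSPA1A is read from chr6:31815293-31815542 and HSPA1B from chr6:31827488-31827737, both on the plus strand, and capitals mark a pair of facing heat shock units, GAA and TTC with 2 bases between them. At a shift of 1 base, 235 of 249 compared bases, or 94.4%, were identical between them.
HSPA1A: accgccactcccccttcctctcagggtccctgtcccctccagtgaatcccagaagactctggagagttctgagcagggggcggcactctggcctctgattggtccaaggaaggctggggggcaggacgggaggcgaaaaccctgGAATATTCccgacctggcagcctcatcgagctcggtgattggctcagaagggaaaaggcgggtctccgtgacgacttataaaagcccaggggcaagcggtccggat
HSPA1B: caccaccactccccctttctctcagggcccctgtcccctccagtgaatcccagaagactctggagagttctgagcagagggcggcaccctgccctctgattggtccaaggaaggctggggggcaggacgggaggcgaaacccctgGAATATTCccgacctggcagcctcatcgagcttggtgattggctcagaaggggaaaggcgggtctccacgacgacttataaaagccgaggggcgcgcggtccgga

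Motifs were searched on both strands. A run of 3 units, alternating GAA and TTC and each parted by 2 bases of any kind, was present upstream of 3 of the 61 members, or 4.92%, against 0.439% of all 27305 promoters. The members were HSPA8, DNAJB6 and HSPA6. A pair of units with the same spacing, which lies inside every run of 3, was present in 21.3% of member promoters against 11.7% of all. The ER stress element, CCAAT and CCACG parted by 9 bases, was present in 1 member, HSP90B1, or 1.64%, against 0.0806% of all promoters. Short windows around these matches show the units in capitals for HSPA8 (chr11:123062345-123062374 and chr11:123062170-123062199, minus strand), DNAJB6 (chr7:157336865-157336894, plus), HSPA6 (chr1:161524458-161524487, plus) and HSP90B1 (chr12:103930211-103930240 and chr12:103930316-103930345, plus).
HSPA8 at -230: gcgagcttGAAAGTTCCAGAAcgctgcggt
HSPA8 at -55: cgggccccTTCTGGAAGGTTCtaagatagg
DNAJB6 at -131: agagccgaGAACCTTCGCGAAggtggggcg
HSPA6 at -74: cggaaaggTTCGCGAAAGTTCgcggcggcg
HSP90B1 at -194: cctgaCCAATCGGAAGGAGCCACGcttcgg
HSP90B1 at -89: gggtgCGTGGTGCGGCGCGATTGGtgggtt
Positions count bases from the start of transcription that the RefSeq promoter table gives to the first base in capitals. For 9 of the 61 members that start lies inside the gene's full RefSeq span, which reaches further upstream. HSPA8 is one of them, with a start at 123062136, 326 bases inside its span, so that both of its windows also lie within the span. HSPA6 held at most 3 counts in any library, DNAJB6 passed no test, and HSPA8 and HSP90B1 were lower in hyperoxia, as given below. HSPH1, HSPD1, HSPE1, DNAJB2 and DNAJC5 had no match of any of these motifs in their window.

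Levels differed widely among the members. Per kilobase of exon, HSPA8, the constitutive cytosolic HSP70, had the highest median over the 14 labelled libraries at 282 CPM per kb. HSPB1 followed at 133, HSPE1 at 96.2, DNAJA1 at 81.3, HSPD1 at 60.8 and the mitochondrial HSP70 gene HSPA9 at 52.5 CPM per kb. The ranges over libraries of these neighbours overlapped, except that the lowest HSPA8 value, 228 CPM per kb, was above the highest of HSPB1, 195 CPM per kb. Lengths were the union of all annotated exons, from 1623 bases for HSPB1 to 9782 for HSPA9 among these genes. The order below HSPA8 therefore depends on the annotation. Not divided by length, median CPM was 1367 for HSPA8, 514 for HSPA9, 464 for HSPD1 and 416 for HSP90B1. It was 217 for DNAJA1, 216 for HSPB1 and 175 for HSPE1. By contrast, 12 members had too few counts to be tested. DNAJB3, DNAJB8, HSPA7 and HSPB7 had no count in any labelled library, and DNAJC15, HSPA6 and HSPB3 had at most 3. DNAJA4, DNAJB13, DNAJC28 and HSPB9 had at most 13 counts in a library, and HSPB2 had 34 counts in hyperoxia without vehicle replicate 1 and 0 in the other 13. All of the 58 members that passed the filter are accounted for in what follows.

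Together the 70 members took 0.470% to 0.530% of gene counts in the 7 hyperoxia libraries and 0.584% to 0.754% in the 7 normoxia libraries, and these ranges did not overlap. HSPA8 alone took 0.109% to 0.135% in hyperoxia and 0.137% to 0.209% in normoxia. Without it the members took 0.360% to 0.398% and 0.447% to 0.556%. A small number of abundant genes carries these sums, which were not tested.

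In hyperoxia, the inducible HSP70 genes HSPA1A and HSPA1B, the nucleotide-exchange genes HSPA4 and HSPH1, the mitochondrial chaperonin genes HSPD1 and HSPE1 and the ER gene HSP90B1 fell in each comparison, and the J protein genes DNAJB2 and DNAJC5 rose. The oxygen levels were compared in the vehicle, the ATRA and the no-vehicle libraries separately, and a gene was called where the adjusted p of edgeR's quasi-likelihood test was under 0.05. With vehicle, 16 of the 58 members (27.6%) were called, against 17.5% of all 14957 genes tested, with 13 members lower and 3 higher against 8.81% and 8.68% of all genes. With ATRA, 14 were called (24.1%), close to the 22.7% of all genes, with 10 lower and 4 higher (11.3% and 11.4% of all genes). Without vehicle, 15 were called (25.9%) against 15.2% of 15339 genes, with 12 lower and 3 higher (7.58% and 7.57% of all genes). The median log2 fold change over the members was -0.07, -0.06 and -0.34, beside 0.01, 0.01 and -0.10 over all genes tested.

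By family, the median log2 fold change of the 12 HSPA genes tested was -0.56 with vehicle, -0.18 with ATRA and -0.49 without vehicle. The 10 DNAJB genes had medians of 0.15, 0.03 and -0.54, and the 24 DNAJC genes had 0.06, 0.03 and -0.19. Of the 24 DNAJC genes 2, 3 and 4 were called (8.33%, 12.5% and 16.7%), against 17.5%, 22.7% and 15.2% of all genes. Without vehicle the medians depended on single libraries, since without hyperoxia replicate 1 that of DNAJB was 0.19, that of DNAJC 0.0728 and that of all members 0.00599, and without hyperoxia replicate 2 they were -1.39, -0.22 and -0.64. Leaving out single libraries moved the counts. In each of the fits named next 1 group kept a single library, and the share of all genes called moved the same way. With vehicle the count of 16 fell to 10 without hyperoxia replicate 1, to 8 without hyperoxia replicate 2 and to 10 without normoxia replicate 1. Without vehicle the count of 15 rose to 31 without hyperoxia replicate 2, which left the library with few detected genes as the lone hyperoxia sample, and fell to 8 without normoxia replicate 1. A fit of the 4 libraries without vehicle alone called 0 members in edgeR, and 0.419% of all genes. DESeq2 called 17 members, and 19.4% of all genes, in the fit of 14 libraries.

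**Figure D1:**
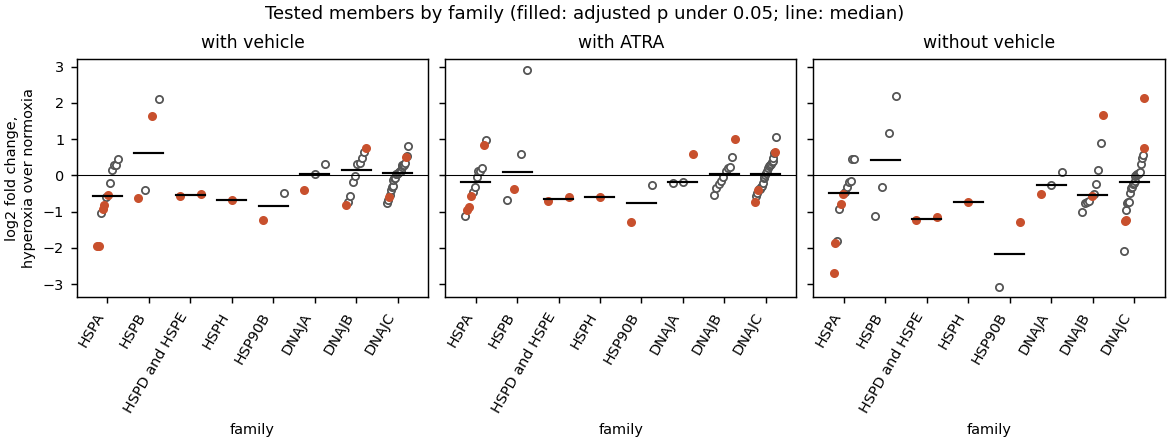
Log2 fold change (vertical axis, hyperoxia over normoxia) of the 58 members tested, by family, in the comparisons with vehicle, with ATRA and without vehicle. Filled points have an edgeR adjusted p under 0.05 and lines are family medians, which lie at -0.56, -0.18 and -0.49 for HSPA.

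Called lower in all 3 comparisons were 7 members, HSPA1A, HSPA1B, HSPA4, HSPH1, HSPD1, HSPE1 and HSP90B1, against 4.47% of all genes. Called higher in all 3 were DNAJB2 and DNAJC5, against 4.05% of all genes. In 10 members all 7 hyperoxia libraries lay below all 7 normoxia libraries (7.31% of all genes), namely these 7 with HSPA8, DNAJA1 and DNAJC8. In 2, DNAJB2 and DNAJC5, all lay above (6.34% of all genes). No member was called in opposite directions in different comparisons. The comparison without vehicle came from the fit of all 14 libraries and the others from that of 10. With all 14 libraries, DNAJB2 and DNAJC5 lost their vehicle calls (edgeR adjusted p = 0.0988 and 0.0652). HSPA1A lost its ATRA call (edgeR adjusted p = 0.0754). That fit called 9.26% of all genes with vehicle and 12.9% with ATRA, in place of 17.5% and 22.7%.

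**Figure D2:**
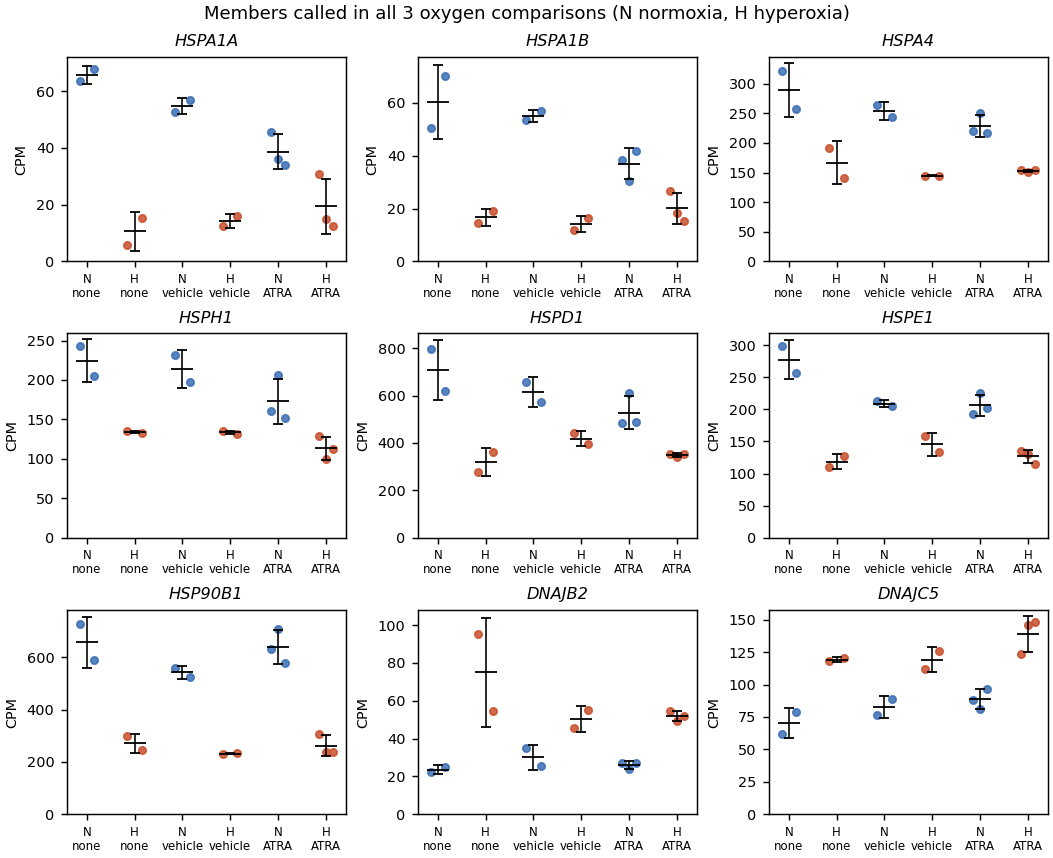
Normalized counts (CPM, vertical axes from 0) of the 9 members called in all 3 oxygen comparisons, by group, with N for normoxia in blue, H for hyperoxia in red, and none for the libraries without vehicle. Points are libraries and bars show the mean and SD, with the 7 hyperoxia libraries below the 7 normoxia libraries in the first 7 panels and above them for DNAJB2 and DNAJC5.

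HSPA1A and HSPA1B encode the same heat-inducible cytosolic HSP70 and lie side by side in the major histocompatibility region (chr6:31815543-31817942 and chr6:31827738-31830254, plus strand). Both had the largest falls of all called members in the comparisons with vehicle and without vehicle, though not with ATRA. HSPA1A was at 52.8 and 56.8 CPM in normoxia with vehicle and at 12.5 and 15.9 CPM in hyperoxia with vehicle. Among ATRA libraries it was at 45.6, 36.2 and 34.1 CPM in normoxia and at 30.6, 14.9 and 12.5 CPM in hyperoxia. Without vehicle it was at 63.6 and 67.9 CPM in normoxia and at 5.79 and 15.3 CPM in hyperoxia, with 5.79 CPM in the library with few detected genes. Normoxia was higher in each of these settings with no overlap, and the ATRA libraries lay closest together. The fall was 3.83-fold with vehicle (log2 fold change -1.94, standard error 0.33, edgeR adjusted p = 0.000219), 1.95-fold with ATRA (-0.96, standard error 0.27, edgeR adjusted p = 0.0118) and 6.43-fold without vehicle (-2.68, standard error 0.45, edgeR adjusted p = 0.000756). Without vehicle, the log2 fold change lay between -3.55 and -2.10 over the 4 libraries left out in turn. The call with ATRA was lost without normoxia replicate 1 or hyperoxia replicate 3 (largest edgeR adjusted p = 0.0662). The log2 fold changes with ATRA lay between -1.51 and -0.72 over the 6 libraries left out in turn.

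HSPA1B ran alongside. In vehicle libraries it was at 53.5 and 56.8 CPM in normoxia and at 11.9 and 16.4 CPM in hyperoxia, a 3.85-fold fall (log2 fold change -1.94, standard error 0.29, edgeR adjusted p = 4.03e-05). Values with ATRA were 38.3, 30.6 and 41.9 CPM against 26.7, 18.4 and 15.3 CPM, a 1.82-fold fall (edgeR adjusted p = 0.00934). Without vehicle they were 50.3 and 70.04 CPM against 14.4 and 18.9 CPM, a 3.63-fold fall (edgeR adjusted p = 0.00102). The pair shares nearly all of its coding sequence, so reads that match both copies cannot be assigned to either and the 2 values are not independent measurements. HSPA1L, the neighbouring copy expressed mainly in testis, lay between 0 and 5.36 CPM and passed no test. HSPA6, another strictly inducible HSP70, was at or under 3 counts in all groups, and no fold is given.

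HSPA8, the constitutive HSP70 with both 3-unit elements printed above (gene span chr11:123057489-123062462, minus strand), fell less. It was at 2066 and 1636 CPM in normoxia with vehicle and at 1339 and 1195 CPM in hyperoxia, a 1.46-fold fall (log2 fold change -0.55, standard error 0.14, edgeR adjusted p = 0.00744). In ATRA libraries it was at 1447, 1639 and 1395 CPM against 1287, 1105 and 1223 CPM, without overlap but just short of the threshold (log2 fold change -0.31, edgeR adjusted p = 0.0525). There it was called by DESeq2 and, in edgeR, with RLE size factors, without the filter and with library sets as a block. Fits of only the groups compared and of all 14 libraries did not call it. Without vehicle it was at 2038 and 1575 CPM against 1323 and 1190.2 CPM (log2 fold change -0.52, edgeR adjusted p = 0.0327). In every setting the normoxia libraries of HSPA8 spread more widely than the hyperoxia libraries. Its vehicle call was lost without normoxia replicate 1 or hyperoxia replicate 2 (largest edgeR adjusted p = 0.149), and its call without vehicle was lost without normoxia replicate 1 (edgeR adjusted p = 0.253).

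The nucleotide-exchange factors HSPA4 and HSPH1, large HSP70 relatives, fell to a like degree. HSPA4 (chr5:133052013-133106449, plus strand) was at 264 and 243 CPM in normoxia with vehicle and at 145 and 145 CPM in hyperoxia. The ATRA libraries were at 219.9, 251 and 217 CPM against 154, 152 and 154 CPM, and without vehicle at 321 and 257 CPM against 192 and 141 CPM. The hyperoxia libraries with vehicle or ATRA differed by few CPM, far less than the gap to normoxia. The log2 fold changes were -0.81, -0.58 and -0.79 (edgeR adjusted p = 0.000156, 0.00049 and 0.00298). HSPA4 kept its call under each single library left out in all 3 comparisons, with adjusted p up to 0.0366 from edgeR.

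HSPH1 (chr13:31134973-31162388, minus strand) was at 231 and 197 CPM against 135 and 132 CPM with vehicle, at 161, 206 and 152 CPM against 128, 99.5 and 112 CPM with ATRA, and at 243 and 205 CPM against 135 and 133 CPM without vehicle, normoxia first. No hyperoxia value reached a normoxia value. The log2 fold changes were -0.68, -0.60 and -0.74 (edgeR adjusted p = 0.00524, 0.00249 and 0.00775), and leaving out normoxia replicate 1 ended the calls with vehicle (edgeR adjusted p = 0.0701) and without vehicle (edgeR adjusted p = 0.0725). HSPA4L, another gene of this branch, gave a log2 fold change of 0.45 with vehicle (edgeR adjusted p = 0.213), rose with ATRA (0.83, standard error 0.19, edgeR adjusted p = 0.0034, but 0.0759 in the edgeR fit of all 14 libraries) and gave -0.31 without vehicle (edgeR adjusted p = 0.573). In the ATRA setting it was at 33.9, 38.4 and 30.2 CPM in normoxia and at 74.6, 42.9 and 61.9 CPM in hyperoxia.

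The mitochondrial chaperonin genes HSPD1 (HSP60) and HSPE1 (HSP10) start 104 bases apart on opposite strands of chromosome 2 (chr2:197486584-197500274 and chr2:197500379-197503449), and both fell. HSPD1 was at 659 and 572 CPM in normoxia with vehicle and at 442 and 395 CPM in hyperoxia. ATRA libraries were at 486, 610.1 and 489 CPM against 354, 339 and 353 CPM, and without vehicle at 797 and 619.8 CPM against 278 and 359.9 CPM. The groups were apart in each setting, with the widest gap in the libraries without vehicle. Its log2 fold changes were -0.56, -0.60 and -1.15 (standard errors 0.14, 0.11 and 0.16, edgeR adjusted p = 0.00645, 0.000496 and 0.000204). HSPE1 was at 213 and 205 CPM against 158 and 133 CPM with vehicle, at 193, 225 and 202 CPM against 135, 130.5 and 115 CPM with ATRA, and at 299 and 256 CPM against 110.1 and 127 CPM without vehicle. Like HSPD1, it was lowest in the hyperoxia libraries of every setting. Its log2 fold changes were -0.52, -0.70 and -1.23 (standard errors 0.14, 0.12 and 0.15, edgeR adjusted p = 0.0132, 0.000173 and 5.25e-05). The read-through gene HSPE1-MOB4 overlaps HSPE1 and held 99.1% as many counts, and how reads on both were counted is not given in the sources used here.

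With vehicle, HSPD1 lost its call without normoxia replicate 1 or hyperoxia replicate 2 (largest edgeR adjusted p = 0.0889), and HSPE1 without these or normoxia replicate 2 (largest edgeR adjusted p = 0.184). The mitochondrial HSP70 itself did not follow. HSPA9 (chr5:138553756-138575401, minus strand) was at 539.8 and 502 CPM in normoxia with vehicle and at 603 and 559.8 CPM in hyperoxia, with log2 fold changes of 0.16, -0.05 and -0.16 (edgeR adjusted p = 0.496, 0.787 and 0.500). DNAJA3, the J protein that works with HSPA9, rose with ATRA from 74.9, 70.8 and 67.4 CPM to 97.0, 124 and 103 CPM (log2 fold change 0.59, standard error 0.13, edgeR adjusted p = 0.00254). With vehicle its log2 fold change was 0.32 (edgeR adjusted p = 0.194) and without vehicle 0.11 (edgeR adjusted p = 0.691). DNAJC19, a part of the mitochondrial import motor, gave 0.23, 1.05 and 0.02, with an edgeR adjusted p of 0.054 at its nearest to the threshold, with ATRA.

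HSP90B1, the ER form of HSP90 (chr12:103930410-103947926, plus strand), had the smallest p of all members in the vehicle and ATRA comparisons. With vehicle it was at 559 and 525 CPM in normoxia and at 229 and 233 CPM in hyperoxia. With ATRA the values were 632, 708 and 578 CPM against 307, 236 and 239 CPM, and without vehicle at 726 and 589 CPM against 297 and 246 CPM. The highest hyperoxia value was far below the lowest normoxia value. The falls were 2.34-fold, 2.44-fold and 2.42-fold, with log2 fold changes of -1.23, -1.29 and -1.27 (standard errors 0.15, 0.12 and 0.16, edgeR adjusted p = 3.04e-06, 7.21e-08 and 6.97e-05). No single library left out ended a call. MIR3652, which lies within HSP90B1, held 11.9% as many counts.

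J proteins of the ER varied more. DNAJC10, a reductase that opens wrong disulfide bonds, fell with vehicle from 128 and 124 CPM to 74.8 and 90.7 CPM (log2 fold change -0.60, edgeR adjusted p = 0.00901) and with ATRA from 147, 144 and 138 CPM to 123, 100.2 and 103 CPM (-0.39, edgeR adjusted p = 0.0289). Without vehicle its groups overlapped, with hyperoxia at 166 and 91.5 CPM around normoxia at 148 and 153 CPM (-0.22, edgeR adjusted p = 0.505). The value of 166 CPM came from the library with few detected genes. In the edgeR fit of all 14 libraries DNAJC10 was called neither with vehicle (edgeR adjusted p = 0.0966) nor with ATRA (edgeR adjusted p = 0.169). The vehicle call was lost without hyperoxia replicate 1 or normoxia replicate 1 (largest edgeR adjusted p = 0.142), and the ATRA call in 4 of 6 fits that left out a library, those without normoxia replicate 1 or 2 or hyperoxia replicate 2 or 3 (largest edgeR adjusted p = 0.0849). DNAJB11, which hands clients to the ER HSP70, gave -0.58, -0.53 and -1.02, with edgeR adjusted p from 0.0585 to 0.202. DNAJB9, known as a target of the unfolded protein response, gave 0.66, 0.50 and 0.88 at low levels of 7.18 to 23.6 CPM (edgeR adjusted p from 0.278 to 0.402). DNAJC3, an ER protein that also limits the kinase PERK, gave 0.05, -0.31 and -0.24 (edgeR adjusted p from 0.221 to 0.910), and HSPA13, an ER-linked HSP70 relative, gave 0.29, 0.13 and -0.17. The pseudogene HSP90B2P did not pass 5.66 CPM in any library and passed no test. Its log2 fold change without vehicle, -3.07, was the most negative of all members tested there.

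**Figure D3:**
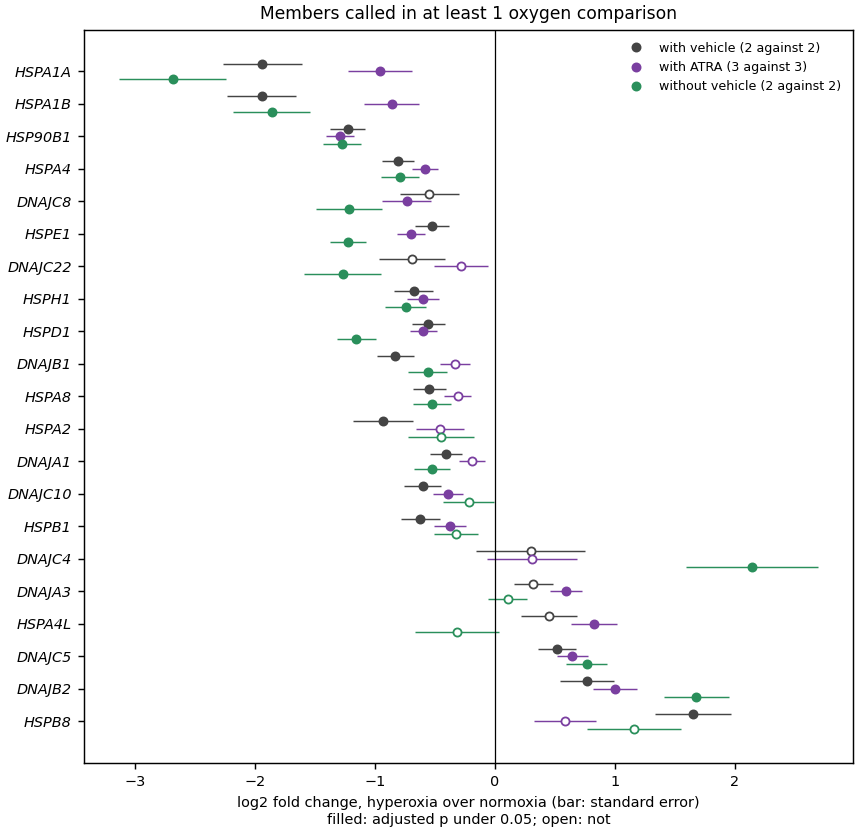
Log2 fold change (horizontal axis, hyperoxia over normoxia, bars are standard errors) of the 21 members called in at least 1 oxygen comparison, with vehicle in grey, with ATRA in purple and without vehicle in green. Filled points have an edgeR adjusted p under 0.05, and for HSP90B1 the 3 points lie between -1.29 and -1.23.

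Among cytosolic J proteins, DNAJB1 and DNAJA1 were called lower in hyperoxia with vehicle and without vehicle, whereas DNAJB2 and DNAJC5 were higher in all 3 comparisons. DNAJB1, the main heat-inducible J protein (chr19:14514769-14560391, minus strand), was at 165 and 163 CPM in normoxia with vehicle and at 89.9 and 94.6 CPM in hyperoxia, a 1.78-fold fall (log2 fold change -0.83, standard error 0.16, edgeR adjusted p = 0.000684). Without vehicle it went from 146 and 163 CPM to 112 and 97.7 CPM (-0.56, edgeR adjusted p = 0.0281). With ATRA the groups overlapped, at 178, 165 and 182 CPM in normoxia and 166, 131 and 119 CPM in hyperoxia (-0.33, edgeR adjusted p = 0.0638). DESeq2 and the edgeR fit with library sets as a block called DNAJB1 lower there, and the other alternatives for that comparison did not. The call without vehicle was lost without either normoxia library (largest edgeR adjusted p = 0.124). TECR overlaps DNAJB1 and held 42.6% as many counts.

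DNAJA1, a farnesylated partner of HSPA8, was the most abundant J protein per kilobase. It went from 292 and 259 CPM to 213 and 202 CPM with vehicle (log2 fold change -0.41, edgeR adjusted p = 0.0364), from 219, 234 and 229.5 CPM to 215, 182 and 201 CPM with ATRA (-0.19, edgeR adjusted p = 0.231) and from 316 and 237 CPM to 178 and 207 CPM without vehicle (-0.52, edgeR adjusted p = 0.0277). Hyperoxia was lower in all settings, by little with ATRA. The vehicle call was lost under each of the 4 libraries left out (largest edgeR adjusted p = 0.253), and the call without vehicle was lost without hyperoxia or normoxia replicate 1 (largest edgeR adjusted p = 0.287). DNAJC8, a protein of the splicing machinery, fell with ATRA (-0.74, edgeR adjusted p = 0.011) and without vehicle (-1.22, edgeR adjusted p = 0.00733), and gave -0.55 with vehicle (edgeR adjusted p = 0.140). Its 7 hyperoxia libraries lay between 26.4 and 45.3 CPM and its 7 normoxia libraries between 48.7 and 80.8 CPM. The ATRA call was lost without normoxia replicate 2 (edgeR adjusted p = 0.0813) and the other without normoxia replicate 1 (edgeR adjusted p = 0.0718).

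DNAJB2, a J protein with ubiquitin-binding motifs that steers clients to the proteasome (chr2:219279366-219286895, plus strand), rose. It was at 34.8 and 25.4 CPM in normoxia with vehicle and at 45.6 and 55.1 CPM in hyperoxia. Under ATRA it was at 27.1, 23.7 and 27.1 CPM against 54.6, 49.4 and 51.9 CPM, and without vehicle at 22.0 and 25.2 CPM against 95.5 and 54.7 CPM. Every hyperoxia value was above every normoxia value, and the highest, 95.5 CPM, came from the library with few detected genes. The log2 fold changes were 0.77, 1.00 and 1.68 (standard errors 0.22, 0.19 and 0.27, edgeR adjusted p = 0.0196, 0.000427 and 0.00063). Without that library the rise without vehicle was still called, and over the 4 libraries left out in turn its log2 fold change lay between 1.21 and 1.96. The vehicle call was lost without either hyperoxia library or normoxia replicate 2 (largest edgeR adjusted p = 0.330).

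DNAJC5, the cysteine string protein of secretory vesicles (chr20:63895126-63936011, plus strand), rose less and more evenly. It went from 76.8 and 88.9 CPM to 112 and 126 CPM with vehicle, from 87.9, 81.5 and 96.8 CPM to 123, 146 and 148 CPM with ATRA, and from 62.0 and 78.7 CPM to 118 and 121 CPM without vehicle. The ranges of the oxygen levels did not meet in any setting. The log2 fold changes were 0.52, 0.64 and 0.76 (standard errors 0.16, 0.13 and 0.17, edgeR adjusted p = 0.0264, 0.00101 and 0.00615). With vehicle the call was lost under each of the 4 libraries left out (largest edgeR adjusted p = 0.306), and without vehicle it was lost without normoxia replicate 1 (edgeR adjusted p = 0.142).

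Of the other J proteins, 2 were called once, both without vehicle. DNAJC22 fell there from 43.1 and 57.3 CPM to 18.4 and 23.5 CPM (log2 fold change -1.27, edgeR adjusted p = 0.0139), a call lost without hyperoxia replicate 1 or normoxia replicate 2 (largest edgeR adjusted p = 0.104). DNAJC4 rose there from 5.46 and 9.12 CPM to 41.7 and 22.2 CPM (2.14, standard error 0.55, edgeR adjusted p = 0.0153), a call lost without hyperoxia replicate 1 or either normoxia library (largest edgeR adjusted p = 0.189). With vehicle and with ATRA the log2 fold change of DNAJC4 was 0.30 and 0.31. DNAJB4 and DNAJB6, cytosolic J proteins of which DNAJB6 holds back aggregation, passed no oxygen test, with log2 fold changes of 0.33, -0.06 and -0.75 and of 0.34, 0.11 and 0.15. DNAJC9, a histone-binding J protein, came near the threshold with vehicle (-0.76, edgeR adjusted p = 0.0735) and with ATRA (-0.56, edgeR adjusted p = 0.099). The other DNAJC genes with a value past 1 in size were DNAJC19, given above, and DNAJC6, which uncoats clathrin vesicles and gave -2.07 without vehicle (standard error 0.90, edgeR adjusted p = 0.132). DNAJC6 was at 0 CPM in the library with few detected genes and at 7.49 CPM in the other hyperoxia library. The remaining 15 DNAJC genes passed no oxygen test and had log2 fold changes between -0.95 and 0.80. The same held for DNAJA2 and for DNAJB5, DNAJB7, DNAJB12 and DNAJB14, which lay between -0.75 and 0.49, and for HSPA12A, HSPA12B and HSPA14, between -1.12 and 0.46.

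Of the small HSPs, HSPB1 was called lower in hyperoxia with vehicle and with ATRA and HSPB8 higher with vehicle. HSPB1 (HSP27, chr7:76302673-76304292, plus strand) was at 254 and 266 CPM in normoxia with vehicle and at 168 and 170.0 CPM in hyperoxia, a 1.54-fold fall (log2 fold change -0.62, standard error 0.16, edgeR adjusted p = 0.0101). With ATRA it was at 313, 209.7 and 317 CPM against 228, 222 and 200.2 CPM, where 1 normoxia library lay within the hyperoxia range (-0.37, edgeR adjusted p = 0.0481). Without vehicle it was at 198 and 272 CPM against 184 and 190.2 CPM (-0.33, edgeR adjusted p = 0.254). The vehicle call was lost without either hyperoxia library or normoxia replicate 2 (largest edgeR adjusted p = 0.0693), and the ATRA call in 4 of 6 fits that left out a library, those without normoxia replicate 1 or 3 or hyperoxia replicate 2 or 3 (largest edgeR adjusted p = 0.196).

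HSPB8, which joins the co-chaperone BAG3 in selective autophagy (chr12:119178931-119194746, plus strand), rose with vehicle from 9.73 and 12.2 CPM to 34.5 and 35.5 CPM, a 3.14-fold rise (log2 fold change 1.65, standard error 0.32, edgeR adjusted p = 0.000733) that held under each library left out. With ATRA it was at 18.8, 16.2 and 12.8 CPM in normoxia and at 21.8, 18.7 and 30.7 CPM in hyperoxia, and the groups overlapped (0.59, edgeR adjusted p = 0.110). Without vehicle it was at 10.5 and 15.4 CPM against 20.6 and 37.5 CPM (1.16, edgeR adjusted p = 0.0557). HSPB6 had the largest positive log2 fold change of all members tested in each comparison, at 2.12, 2.91 and 2.19. It lay between 0 and 6.19 CPM, with at most 5 counts in a normoxia library, and passed no test. HSPB11, which is chiefly known as a subunit of the intraflagellar transport complex, gave -0.39, -0.68 and -1.12 (edgeR adjusted p from 0.224 to 0.670).

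**Figure D4:**
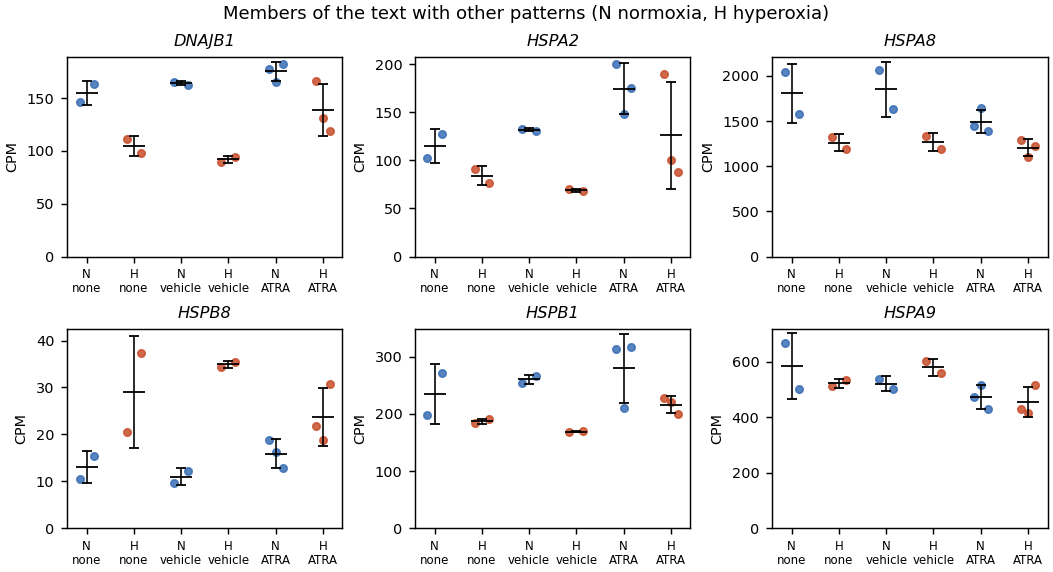
Normalized counts (CPM, vertical axes from 0) of 6 members with other patterns, by group, with N for normoxia in blue, H for hyperoxia in red, and none for the libraries without vehicle. Points are libraries and bars show the mean and SD, and the ATRA hyperoxia library at 166 CPM for DNAJB1 and 190.2 CPM for HSPA2 stands above the others of its group.

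ATRA moved few members. The comparison asks whether ATRA altered chaperone RNA at a given oxygen level. In hyperoxia, 2 of 58 members (3.45%) were called higher with ATRA than with vehicle and 0 lower, near the 2.21% of all genes called (1.52% higher and 0.695% lower). DNAJB1 was at 166, 131 and 119 CPM with ATRA and at 89.9 and 94.6 CPM with vehicle (log2 fold change 0.59, standard error 0.15, edgeR adjusted p = 0.0335). HSPA2, an HSP70 best known from spermatogenesis (chr14:64535905-64543237, plus strand), was at 190.2, 101 and 87.6 CPM with ATRA and at 69.98 and 68.0 CPM with vehicle (0.89, standard error 0.23, edgeR adjusted p = 0.0461). For both, all 3 ATRA libraries were higher than both vehicle libraries, and replicate 1 was the highest. Without that library the log2 fold change was 0.43 for DNAJB1 (edgeR adjusted p = 0.144) and 0.44 for HSPA2 (edgeR adjusted p = 0.218). DNAJB1 also lost its call without ATRA replicate 2 or either vehicle library (largest edgeR adjusted p over these fits 0.462), and HSPA2 without either vehicle library (largest edgeR adjusted p 0.344). DESeq2 called DNAJB1 and HSPA9, which gave -0.35 in edgeR (adjusted p = 0.173), and did not call HSPA2. The median log2 fold change of the members was -0.06, beside 0.00 over all genes.

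HSPA2 also fell with oxygen in vehicle libraries, from 133 and 131 CPM to 69.98 and 68.0 CPM (log2 fold change -0.93, standard error 0.25, edgeR adjusted p = 0.0112). Its groups overlapped with ATRA (-0.46, edgeR adjusted p = 0.105), and without vehicle it went from 102 and 128 CPM to 91.1 and 76.9 CPM (-0.45, edgeR adjusted p = 0.295). The vehicle call was lost without either hyperoxia library (largest edgeR adjusted p = 0.0701) and in DESeq2 (adjusted p = 0.0664).

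In normoxia, no member was called for ATRA by edgeR or DESeq2, against 1.25% of all genes in edgeR (0.816% higher and 0.435% lower). An unadjusted edgeR p under 0.05 was reached by 5 of 58 members and by 1315 of 14957 genes, a like share. The 5 members were DNAJA1 (log2 fold change -0.27), DNAJA3 (-0.45), HSPA1B (-0.58), HSPA8 (-0.31) and HSPH1 (-0.31), all lower with ATRA, with edgeR adjusted p from 0.216 to 0.569. HSPA1B was at 38.3, 30.6 and 41.9 CPM with ATRA and 53.5 and 56.8 CPM with vehicle, without overlap.

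Whether the oxygen effect differed between ATRA and vehicle was tested by an interaction term. No member was called by edgeR or DESeq2, against 0.14% of all genes in edgeR (0.1% higher and 0.0401% lower). An unadjusted edgeR p under 0.05 was reached by 4 of 58 members and by 1078 of 14957 genes, a like share. The log2 fold change in hyperoxia was less negative with ATRA by 0.98 for HSPA1A, 1.08 for HSPA1B and 0.49 for DNAJB1. For HSPB8 the interaction was -1.06 on the log2 scale. Their edgeR adjusted p lay between 0.41 and 0.622. The oxygen effect without vehicle was likewise compared with that in the vehicle and ATRA libraries, a test chosen after seeing the data, and no member was called by edgeR in either test (adjusted p of at least 0.634), against 0.00652% and 0.0196% of all genes. Counts at an unadjusted edgeR p were not taken over all genes in these tests, so none are given for the members. For HSPE1 the difference from vehicle was -0.70 (standard error 0.21, edgeR adjusted p = 0.869).

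The wider chaperone network was read from 70 genes of 7 lists, all tested. With vehicle 22 were called, 19 lower and 3 higher, with ATRA 32, 30 lower and 2 higher, and without vehicle 26, 24 lower and 2 higher, against the 17.5%, 22.7% and 15.2% of all genes given above. With vehicle the count fell to 12 without hyperoxia replicate 2. Without vehicle it rose without hyperoxia replicate 2 and fell without normoxia replicate 1, and the fit of those 4 libraries alone called 0 in edgeR. With vehicle the fit of the groups compared called 34, and 33% of all genes. In the fits without a library named here, and in the fit of the 4 libraries alone, the share of all genes called moved the same way as these counts. The cytosolic HSP90 genes HSP90AA1 and HSP90AB1 fell in each comparison. HSP90AA1 was at 1766 and 1532 CPM in normoxia with vehicle and at 1142 and 1012 CPM in hyperoxia, with log2 fold changes of -0.61, -0.51 and -1.02 over the 3 comparisons (edgeR adjusted p = 0.00318, 0.0022 and 0.000559). Its vehicle call was lost without hyperoxia replicate 2 (edgeR adjusted p = 0.0513). HSP90AB1 was at 1225 and 1189.9 CPM against 823 and 775 CPM, with log2 fold changes of -0.60, -0.59 and -0.71 (edgeR adjusted p = 0.00111, 0.000135 and 0.000921). TRAP1, their mitochondrial relative, passed no oxygen test (-0.44, -0.35 and -0.16).

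Over all genes, 17.5%, 22.7% and 15.2% were called in the 3 comparisons, and 8.81%, 11.3% and 7.58% were called lower. HSP70 and HSP90 co-chaperones had 7, 7 and 8 of 24 genes called (29.2%, 29.2% and 33.3%), all lower. STIP1, which links HSP70 to HSP90, gave -0.86, -0.75 and -0.86, and FKBP4, an immunophilin on HSP90, gave -0.96, -0.79 and -1.02, both called in all 3 comparisons. AHSA1, which activates the HSP90 ATPase, and CACYBP were called lower in all 3 as well, with CACYBP at -1.12, -1.01 and -1.36. Of the 8 subunits of CCT, the cytosolic chaperonin for actin and tubulin, 2, 6 and 5 were called (25%, 75% and 62.5%), all lower. TCP1 gave -0.60, -0.65 and -0.77 and CCT8 gave -0.53, -0.48 and -0.76. ER chaperones had 7, 11 and 7 of 12 genes called (58.3%, 91.7% and 58.3%), all lower. PDIA4, a disulfide isomerase, went from 212 and 227 CPM to 63.1 and 82.4 CPM with vehicle and gave -1.59, -1.52 and -1.77 (edgeR adjusted p = 1.45e-07, 1e-08 and 3.76e-06). The lectin chaperone CALR gave -0.97, -0.79 and -1.25 and HYOU1, the ER nucleotide-exchange factor, -0.86, -0.75 and -1.02, all called. Of 6 prefoldin genes, 1, 1 and 2 were called (16.7%, 16.7% and 33.3%), the first higher and the others lower. Of 12 genes of mitochondrial import and quality control, 2, 4 and 1 were called (16.7%, 33.3% and 8.33%), with 1 higher in each comparison and 1, 3 and 0 lower. Of 5 heat shock factor genes, 1 was called in each comparison (20%), higher. In all, 14 of the 70 were called lower in all 3 comparisons, against 4.47% of all genes. Of these, MANF lost its calls with vehicle and ATRA, and PDIA3 its call with vehicle, in the edgeR fit of all 14 libraries.

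**Figure D5:**
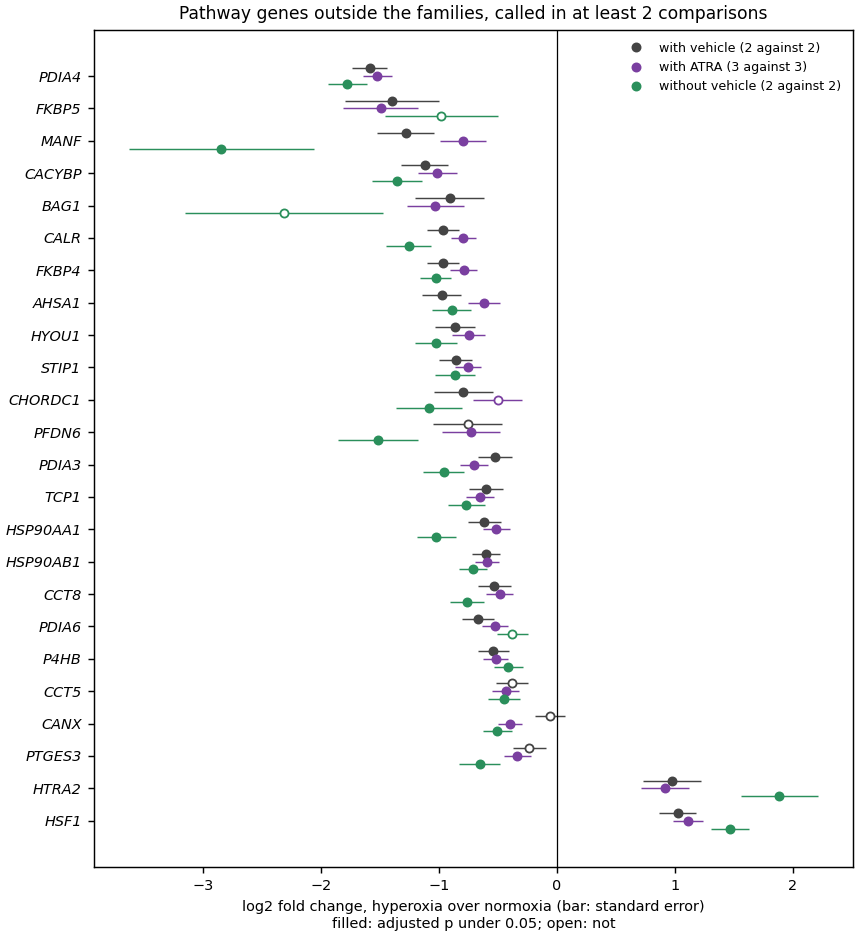
Log2 fold change (horizontal axis, hyperoxia over normoxia, bars are standard errors) of the chaperone genes outside the HSP and DNAJ members that were called in at least 2 oxygen comparisons, with vehicle in grey, with ATRA in purple and without vehicle in green. Filled points have an edgeR adjusted p under 0.05, with PDIA4 between -1.77 and -1.52, and HSF1 and HTRA2 on the higher side in each comparison.

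Called higher in all 3 were 2 of the 70, against 4.05% of all genes. HSF1, the heat shock transcription factor, was at 88.3 and 82.5 CPM in normoxia with vehicle and at 179.7 and 167 CPM in hyperoxia. With ATRA it was at 86.3, 70.2 and 89.8 CPM against 166, 197 and 172 CPM, and without vehicle at 60.8 and 69.6 CPM against 178 and 182 CPM. All hyperoxia libraries were thus above all normoxia libraries for HSF1 RNA while HSPA1A, HSPA1B, HSPH1 and HSPE1 RNA lay the other way. Its log2 fold changes were 1.02, 1.11 and 1.47 (edgeR adjusted p = 6.21e-05, 1.62e-06 and 1.55e-05), and DGAT1, which overlaps it, held 31.6% as many counts. HTRA2, a mitochondrial protease, gave 0.98, 0.92 and 1.89, and AUP1, which overlaps it, held 335% as many counts. In the edgeR fit of all 14 libraries HTRA2 was not called with vehicle. Between ATRA and vehicle in hyperoxia 2 of the 70 listed genes were called (2.86%), near the 2.21% of all genes. The CCT subunit gene CCT2 was lower with ATRA (-0.84, edgeR adjusted p = 0.000844), also in every fit that left out a library. CALR was higher (0.50, edgeR adjusted p = 0.0337), a call lost without ATRA replicate 1 or 3 or either vehicle library (largest edgeR adjusted p = 0.351), with the library sets as a block and with all 14 libraries (edgeR adjusted p = 0.0802 and 0.365).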

How the data were processed

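RNA from 15 A549 libraries was sequenced with a directional kit. The values are raw read counts per gene symbol that the authors deposited after trimming with Trimmomatic 0.38, alignment to hg38 with HISAT2 and counting with HTSeq, one file per library. Strand and overlap settings and the annotation release are not given in the sources used here, so overlapping genes could share reads. The 5 HTSeq summary rows were left out, and reads on no gene made up 48.6% to 55.3% of each file.

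Counts were analysed in R 4.3.3 with edgeR 4.0.16 (filterByExpr with a minimum count of 10 and a minimum total of 15, TMM, quasi-likelihood test, Benjamini-Hochberg adjustment over all genes tested, threshold 0.05). The vehicle and ATRA comparisons used 10 libraries in 4 groups (14957 genes), and those without vehicle 14 libraries in 6 groups (15339 genes). CPM values are TMM-normalized, and levels per kb used GENCODE 44 exon lengths. Alternatives were DESeq2 1.42.0, RLE size factors, no filter, only the groups compared, all 14 libraries, vehicle and ATRA libraries together, a block of library sets and leaving out each library. Scripts were tested on simulated data.

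Members, gene lists and tests were chosen with earlier results of these data known. Named genes were the members called in a comparison, members linked to stress or abundant, those with the largest change, and called genes of the lists. DNAJC9, DNAJC19 and HSPB11 and other members below the threshold were added after their values were seen. Gene positions and promoters came from RefSeq (GRCh38.p14), and promoters of 9 members were not analysed here.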

Additional observations from a re-analysis of the deposited data

Results flagged for a closer look

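The library whose title and treatment label differ, and which was put in no group, had counts for 60 of the 70 members and entered no comparison. For 54 of the 58 members tested its level, as CPM without TMM normalization, lay within the range of the 14 labelled libraries, and for 4 it was above all of them. HSPB8 was at 41.9 CPM against a highest labelled value of 36.4 CPM. DNAJC16 was at 45.1 CPM against 42.4 CPM, DNAJB6 at 82.0 CPM against 80.3 CPM and DNAJB12 at 75.2 CPM against 73.1 CPM. None was below the range. These are single values of 1 library of 4415705 counts, and the differences were not tested.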

How the results depend on the processing

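Groups of 2 or 3 libraries leave the test to a spread pooled over groups, and depth limits members of few counts. Fits of only the groups compared called 34 listed chaperone genes with vehicle in place of 22, and 33% of all genes in place of 17.5%. Without vehicle they called 0 members in place of 15 and 0 listed genes in place of 26, where DESeq2 in the fit of 14 libraries called 17 and 29. Of all genes these fits called 0.419% and 19.4%, in place of 15.2%. For ATRA in hyperoxia, 0 members were called in place of 2 with the replicate block of library sets, with only the groups compared and with all 14 libraries. DESeq2 called 2. The shares of all genes called there were 1.68%, 1.86%, 0.756% and, in DESeq2, 4.84%, in place of 2.21%. Listed genes there went from 2 to 1 with the block and to 1 with all 14 libraries. With vehicle and ATRA libraries together, 40 listed genes and 34.8% of all genes were called, and the HSPA median was -0.42. With the block the HSPA median without vehicle was -0.63. The sets of the block were inferred from library numbers. Deviations of log2 CPM from the group mean were correlated between libraries of different groups. The correlations ran from -0.05 to 0.20 within a set and from -0.20 to 0.05 between sets. In groups of 2 libraries the deviations mirror each other, so these ranges are partly fixed in advance and cannot settle whether libraries were paired. The numbers were not taken as pairs. The cause of these shifts was not tested.

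The other alternatives left counts within 1.5 times and medians within the spread between replicates, no called change of a single member turned its direction in any fit, and RLE size factors moved the median of all genes by at most 0.01 in size. Some alternatives also called members that the main fit did not, among them HSPA8, DNAJB1, HSPA2 and DNAJC9 with ATRA and HSPB8 and DNAJB11 without vehicle.

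Leaving out each library in turn gave ranges. The largest moves of the counts, with and without vehicle, came with moves of the share of all genes called in the same direction. Members called were 8 to 11 with vehicle, 11 to 18 with ATRA, 8 to 31 without vehicle, and 0 to 2 for ATRA in hyperoxia. Listed genes called were 12 to 16, 25 to 33, 17 to 42, and 1 to 2, with 12 coming without hyperoxia replicate 2, 42 without hyperoxia replicate 2 and 17 without normoxia replicate 1. With vehicle the median log2 fold change was -0.19 to -0.04 over members, -0.74 to -0.27 for HSPA, -0.05 to 0.10 for DNAJB and -0.08 to 0.05 for DNAJC. Without vehicle it was -0.64 to 0.00599, -0.73 to -0.41, -1.39 to 0.19 and -0.26 to 0.0728, where the highest values came without hyperoxia replicate 1 and the lowest, but for DNAJC, without hyperoxia replicate 2.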

Other observations

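In the library of no labelled group, whose title names hyperoxia and whose treatment label does not, the 70 members took 0.533% of gene counts, and HSPA8 alone took 0.129%. The ranges in labelled libraries were 0.470% to 0.530% in hyperoxia and 0.584% to 0.754% in normoxia for the members, and 0.109% to 0.135% and 0.137% to 0.209% for HSPA8.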
